A study of Homo sapiens with 4 samples.

Results

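Type I and type II interferons are cytokines that make cells switch on a large set of antiviral genes. Type I interferons bind the receptor chains IFNAR1 and IFNAR2, and interferon gamma binds IFNGR1 and IFNGR2. Janus kinases on these receptors activate STAT proteins, and a complex that holds STAT2 and IRF9 binds a promoter element, the interferon-stimulated response element (ISRE). Many interferon-stimulated genes keep a basal level in tumour lines without added interferon.

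The expression of 47 interferon-stimulated genes and their regulators was examined in Hs578T, a human breast cancer cell line that is triple-negative (lacking hormone receptors and HER2 amplification) and mesenchymal. The 47 genes were taken by gene name from a table of 60664 genes, and all 47 were found. Cells labelled as the empty group (2 libraries) were compared with cells in which TFCP2L1, a member of the CP2 branch of grainyhead-like transcription factors, was overexpressed (2 libraries). Both groups are the same line, no interferon or virus is named in the labels, and the labels give no vector, clone, selection, culture time or age. The deposited table calls the control FLAG. Whether replicates are separate cultures is not labelled, so the p-values reflect the spread of these 4 libraries only, and that spread may be technical. The labels name no batch, and one shared by a whole group cannot be told apart from TFCP2L1.

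Library totals ranged from 18960674 to 26355502 estimated counts. TFCP2L1 itself was counted 12 and 19 times in empty against 4623 and 5069 times in overexpressing cells, so all 4 libraries went with their labels. VIM, a mesenchymal filament gene of the line, measured 4420 to 5750 CPM. SPARC, FN1, CDH2 and AXL, also expected high, measured from 382 to 5250 CPM. With TFCP2L1, VIM and CDH2 were higher (log2 fold changes 0.27 and 0.47), and SPARC and FN1 were lower (-0.33 and -0.32). Of the genes expected low, the epithelial EPCAM stayed at or below 0.336 CPM and PGR had no count. CDH1 reached 0.472 CPM and ESR1 0.839 CPM. Of 9 leukocyte markers, MS4A1 and CLEC4C had no count in any library and PTPRC was at most 0.114 CPM. The 9 markers summed to 1.85 and 1.53 CPM in empty and 0.923 and 0.916 CPM in overexpressing libraries, and ITGAM, 1 of them, was lower with TFCP2L1. CD14 and NKG7 also had lower CPM in both overexpressing libraries, whereas PTPRC and CD3E had higher CPM in both. CD3E had 1 and 0 counts in empty against 4 and 4 in overexpressing libraries.

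Levels are given as CPM, read counts scaled to library size, and fold changes as TFCP2L1 over empty on the count scale. Genes were tested with edgeR's quasi-likelihood test, and a gene is called at a Benjamini-Hochberg adjusted p under 0.05 over all 16544 genes tested. Of the 47 genes, 45 passed the filter on low counts. Among these 45, 21 were lower with TFCP2L1, 7 were higher and 17 were not called. Over all tested genes 47.5% were called, 23.9% lower and 23.5% higher, against 46.7% lower and 15.6% higher among the 45. The median log2 fold change was -0.55 for the 45 genes, with a range from -2.65 to 1.22, and -0.00 over all tested genes. With the further condition of a log2 fold change of 1 or more in size, 11 of the 45 were lower and 1 was higher, where 9.13% of all tested genes were lower and 4.76% higher. The groups did not overlap in CPM for 37 of the 45 genes, and for 73.7% of all tested genes. In bulk RNA, fewer cells expressing a gene and less RNA per cell cannot be told apart.

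**Figure D1:**
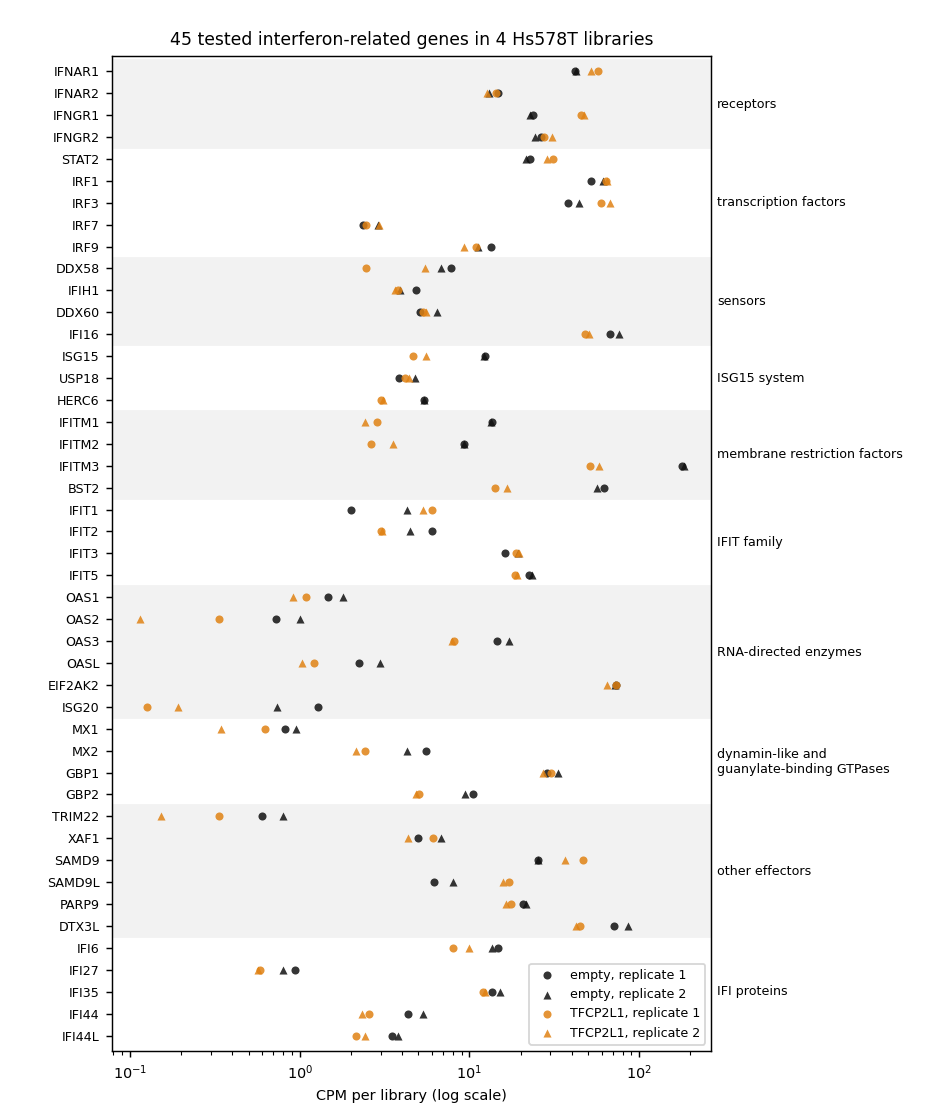
CPM of the 45 tested genes in each library on a log axis, ordered by role, with black symbols for empty and orange for TFCP2L1 libraries. The 4 genes IFITM1, IFITM2, IFITM3 and BST2 show the black and orange symbols far apart, while the receptors and EIF2AK2 lie close together or have the orange symbols on the right.

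The membrane restriction factors IFITM1, IFITM2, IFITM3 and BST2 were all lower. Among the 4 receptor genes 2 were higher and 0 lower, and among the 5 transcription factor genes 2 were higher and 0 lower, where 23.5% of all tested genes were higher and 23.9% lower. IFITM3 was the most abundant of the 47 genes per transcript length in both groups, at 724.33 and 747.83 TPM in empty against 205.97 and 255.78 TPM in overexpressing libraries. It made up 18.7% and 18.3% of the summed CPM of the 47 genes in empty cells, and 6.5% and 7.5% with TFCP2L1. The summed CPM of all 47 went from 957 and 1007 to 781 and 774. Without IFITM3 and BST2 the sums were 717 and 766 for empty against 715 and 699 for overexpressing libraries.

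**Figure D2:**
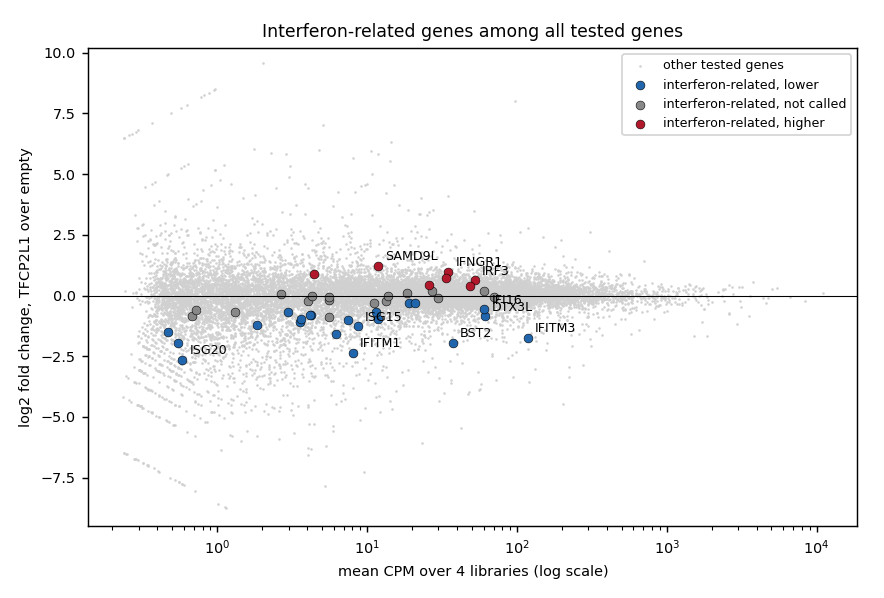
Log2 fold change (TFCP2L1 over empty) against mean CPM over the 4 libraries on a log axis, with all other tested genes in grey and the interferon-related genes coloured by call. IFITM3, BST2 and IFITM1 lie at log2 fold changes of -1.73, -1.94 and -2.35, and SAMD9L at 1.22.

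Interferon transcripts themselves were scarce. Of 21 interferon genes (the alpha, beta, epsilon, kappa, omega, gamma and lambda genes), 16 had no count in any library, IFNB1 and IFNG among them. Only IFNE, a type I interferon known from the female reproductive tract, passed the filter. It measured 2.62 and 2.22 CPM in empty libraries and 1.09 and 0.840 CPM with TFCP2L1. Both overexpressing libraries were below both empty ones, a log2 fold change of -1.33 (SE 0.31, edgeR adjusted p = 0.00267).

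Receptor chains were present in all libraries, and 2 of 4 were higher with TFCP2L1. IFNGR1, the ligand-binding chain of the interferon gamma receptor (ENSG00000027697, chromosome 6, 137197484 to 137219449, minus strand), measured 23.8 and 22.8 CPM in empty and 45.4 and 47.2 CPM in overexpressing libraries. The groups were well apart, and the 1.98-fold rise was called (log2 fold change 0.99, SE 0.08, edgeR adjusted p = 3.04e-07). IFNAR1, a chain of the type I receptor, measured 41.6 and 42.6 CPM against 57.2 and 52.3 CPM, a log2 fold change of 0.38 (edgeR adjusted p = 0.00125). Its partner IFNAR2 was at 14.7 and 13.1 CPM in empty and 14.4 and 12.7 CPM in overexpressing libraries. These ranges overlapped, and the 95% interval of the log2 fold change ran from -0.29 to 0.23. IFNAR2 shares 2038 exon bases on the same strand with AP000295.1, which lay at 0.859 and 0.634 CPM in empty against 0.336 and 0 CPM with TFCP2L1 and was called lower (log2 fold change -2.18, edgeR adjusted p = 0.0395). Summed over both rows, chosen after the values were seen, the log2 fold change was -0.09 (edgeR adjusted p = 0.563). IFNGR2, the second chain of the gamma receptor, measured 26.5 and 24.4 CPM against 27.5 and 30.8 CPM (log2 fold change 0.19, 95% interval -0.01 to 0.40, not called). Without TFCP2L1 overexpression replicate 1 IFNGR2 was called, at 0.28 (edgeR adjusted p = 0.0248). IFNAR1, IFNAR2 and IFNGR2 lie in a cluster on chromosome 21 with AP000295.1 and with IL10RB, a receptor chain for interferon lambda and interleukin 10. IL10RB was not called (log2 fold change -0.22, edgeR adjusted p = 0.0630).

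Most genes of the kinases and STATs below the receptors were not called. In a list of 17 JAK-STAT genes outside the 47, 14 were tested, 1 rose and 1 fell, a share of 14.3% called against 47.5% over all tested genes. The kinase gene TYK2 rose by 0.21 on the log2 scale (edgeR adjusted p = 0.0269). SOCS3, a feedback inhibitor of cytokine receptors, fell from 30.2 and 31.2 CPM to 12.9 and 13.1 CPM (log2 fold change -1.24, SE 0.10, edgeR adjusted p = 1.20e-07).

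Of 5 transcription factors of the response, 2 were higher and 3 were not called. IRF3, which is activated by viral nucleic acid sensing and turns on the interferon beta gene, measured 38.3 and 44.5 CPM in empty and 59.9 and 67.2 CPM in overexpressing libraries. Both overexpressing libraries were above both empty ones, a 1.54-fold rise (log2 fold change 0.62, SE 0.09, edgeR adjusted p = 5.70e-05). The exons of IRF3 overlap those of BCL2L12 on the opposite strand by 734 bases, and BCL2L12 measured 29.9 and 31.9 CPM against 35.1 and 40.9 CPM. Whether reads were counted by strand is not stated, so reads of the shared bases cannot be told apart. STAT2 measured 22.8 and 21.6 CPM against 31.2 and 28.8 CPM, a log2 fold change of 0.43 (edgeR adjusted p = 0.00144). IRF1, a factor induced by interferon gamma, was at 52.1 and 61.4 CPM in empty and 63.5 and 64.5 CPM with TFCP2L1 (log2 fold change 0.18, 95% interval -0.00 to 0.35). In TPM it was at 61 and 44.88 against 61.02 and 58.62, so the order of the empty libraries differed between units. On the opposite strand, exons of AC116366.3 and C5orf56 overlap those of IRF1 by 469 and 1716 bases. AC116366.3 measured 66.2 and 59.6 CPM against 65.2 and 47.7 CPM, and the limit given for IRF3 holds here too. IRF1 was not called (edgeR adjusted p = 0.101), but was called without empty replicate 2, at 0.30 (edgeR adjusted p = 0.0360), and with no filter on low counts, at 0.21 (adjusted p = 0.0326). IRF7, the amplifier of type I interferon production, stayed between 2.36 and 2.94 CPM in all 4 libraries.

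IRF9, the DNA-binding partner of STAT2, had a result that depended on how reads were assigned. Its own row measured 13.4 and 11.3 CPM in empty and 10.9 and 9.23 CPM in overexpressing libraries, with a log2 fold change of -0.30 that was not called (edgeR adjusted p = 0.0961). An annotated gene on the same strand, AL136295.5, shares 1838 exon bases with IRF9. That gene measured 8.71 and 13.9 CPM in empty and 22.5 and 23.9 CPM with TFCP2L1, and was called higher (log2 fold change 1.06, edgeR adjusted p = 0.00151). The counts of IRF9 in each library are not whole numbers, so reads had been divided between features. The sum of both rows, a choice made after the values were seen, was 22.1 and 25.2 CPM against 33.5 and 33.2 CPM, a log2 fold change of 0.50 (SE 0.09, edgeR adjusted p = 0.000505). Without TFCP2L1 overexpression replicate 1 the row of IRF9 alone was called lower, at -0.41 (edgeR adjusted p = 0.0386). A direction for IRF9 therefore cannot be given from the gene-level counts.

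Of 4 sensors of foreign or damaged nucleic acid, 1 fell and 3 were not called. That is 25.0% lower, near the 23.9% over all tested genes. IFI16, a nuclear DNA sensor, measured 67.3 and 76.5 CPM in empty and 47.7 and 50.3 CPM in overexpressing libraries. The groups did not overlap, and the log2 fold change was -0.55 (SE 0.08, edgeR adjusted p = 6.44e-05). DDX58, which encodes the RNA sensor RIG-I, was at 7.77 and 6.77 CPM in empty libraries but at 2.47 and 5.46 CPM in the overexpressing ones. The overexpressing libraries differed more from each other than the empty ones did, and the log2 fold change of -0.87 was not called (SE 0.32, edgeR adjusted p = 0.0614). Without TFCP2L1 overexpression replicate 1 the value was -0.41 (edgeR adjusted p = 0.119), and without replicate 2 it was -1.55 (adjusted p = 9.07e-06). It was not called without empty replicate 1 (-0.76, adjusted p = 0.240) or empty replicate 2 (-0.96, adjusted p = 0.169). DDX58 was called lower with limma-voom (adjusted p = 0.0303), DESeq2 (adjusted p = 0.0326), no filter on low counts (adjusted p = 0.000122) and a minimum of 1 CPM in at least 2 libraries (0.0481). IFIH1, which encodes the RNA sensor MDA5, ranged from 3.63 to 4.85 CPM and the related helicase DDX60 from 5.15 to 6.40 CPM, and neither was called.

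Among 15 further genes of pattern recognition and its adaptors, 14 were tested, of which 8 fell and 2 rose (57.1% lower, against 23.9% over all tested genes). TRIM25, a ubiquitin ligase acting on RIG-I, fell from 173 and 170 CPM to 90.7 and 90.4 CPM (log2 fold change -0.92, edgeR adjusted p = 1.77e-08). TLR4, a sensor of bacterial lipopolysaccharide rather than of nucleic acid, fell from 56.4 and 51.2 CPM to 26.9 and 24.6 CPM (edgeR adjusted p = 2.01e-07). The adaptor genes TRAF3 and STING1 had log2 fold changes of -0.47 and -0.62 (edgeR adjusted p = 0.000218 and 0.00482). The 2 genes that rose were MAVS, the mitochondrial adaptor of RIG-I (log2 fold change 0.20), and the DNA sensor gene AIM2 (1.53, SE 0.48, edgeR adjusted p = 0.0163). AIM2 had few counts, 13 and 4 in empty against 27 and 31 in overexpressing libraries. MAVS and AIM2 were named after their values were seen.

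ISG15 encodes a ubiquitin-like protein that is attached to other proteins after interferon, HERC5 the main human ligase for this step, and USP18 the protease that removes it. ISG15 measured 12.4 and 12.2 CPM in empty and 4.66 and 5.53 CPM in overexpressing libraries. The groups were far apart, with a 2.41-fold fall (log2 fold change -1.27, SE 0.15, edgeR adjusted p = 9.47e-06). HERC6, a relative of HERC5, measured 5.37 and 5.39 CPM against 3.02 and 3.09 CPM, a log2 fold change of -0.81 (edgeR adjusted p = 0.00379). HERC5 itself had 5 and 4 counts in empty cells and 0 in both other libraries, under the filter. With a floor of 3 counts put in place of 0 for the overexpressing group, HERC5 was 3.56-fold lower. That value takes the 9 empty counts as exact, so it leaves out their counting error and is not a firm bound. USP18 measured 3.86 and 4.81 CPM against 4.15 and 4.39 CPM and was not called (95% interval of the log2 fold change -0.45 to 0.42). UBA7 and UBE2L6, the activating and conjugating enzymes of the ISG15 pathway, were picked after their values were seen. They had log2 fold changes of -0.50 and -0.46 (edgeR adjusted p = 0.00257 and 0.000728).

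Proteins of the IFITM family sit in cell membranes and block the fusion of enveloped viruses, and BST2, also called tetherin, holds budding virus particles at the cell surface. Gene positions are those of GENCODE release 29 on GRCh38. IFITM3 (ENSG00000142089, chromosome 11, 319669 to 327537, minus strand) measured 179 and 184 CPM in empty and 51.0 and 58.3 CPM in overexpressing libraries. The libraries of a group lay close together and the groups far apart, a 3.32-fold fall (log2 fold change -1.73, SE 0.07, edgeR adjusted p = 1.61e-10). BST2 (ENSG00000130303, chromosome 19, 17402939 to 17405648, minus strand) measured 61.7 and 56.8 CPM against 14.2 and 16.7 CPM, a 3.84-fold fall (log2 fold change -1.94, SE 0.10, edgeR adjusted p = 1.08e-09). IFITM1 measured 13.5 and 13.4 CPM against 2.85 and 2.44 CPM, a 5.08-fold fall (log2 fold change -2.35, SE 0.17, edgeR adjusted p = 4.23e-08). IFITM2 measured 9.27 and 9.30 CPM against 2.64 and 3.55 CPM, a log2 fold change of -1.58 (SE 0.19, edgeR adjusted p = 8.05e-06). In all 4 genes both overexpressing libraries were below both empty libraries. The IFITM genes are close relatives with non-whole counts, so the division of reads among them is uncertain. IFITM1 and IFITM2 also share 351 annotated exon bases on the same strand, and summed they had a log2 fold change of -1.98 (edgeR adjusted p = 9.06e-09), a choice made after the values were seen.

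The promoters of the called genes with the smallest p among those holding an ISRE core, and of the gene with the largest rise, are shown because the ISRE is the element through which STAT2 and IRF9 act. Each runs from 250 bases before the RefSeq gene start to 10 bases after it, on the gene's strand in build GRCh38.p14. Capitals mark each match to the ISRE core (GAAA, any 2 bases, GAAA), searched on both strands with overlapping matches counted.
IFITM3 (chr11:320851-321110, minus strand): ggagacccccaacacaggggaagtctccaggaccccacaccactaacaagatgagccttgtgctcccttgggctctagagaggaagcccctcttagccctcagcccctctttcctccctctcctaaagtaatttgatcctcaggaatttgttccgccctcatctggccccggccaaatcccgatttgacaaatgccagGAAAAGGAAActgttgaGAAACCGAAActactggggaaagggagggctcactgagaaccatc
IFITM1 (chr11:313790-314049, plus strand): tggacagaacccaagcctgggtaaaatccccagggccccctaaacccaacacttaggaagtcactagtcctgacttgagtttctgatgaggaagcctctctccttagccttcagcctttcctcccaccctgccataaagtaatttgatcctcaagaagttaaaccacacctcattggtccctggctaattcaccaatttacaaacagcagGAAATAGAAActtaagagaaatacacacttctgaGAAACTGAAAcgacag
BST2 (chr19:17405621-17405880, minus strand): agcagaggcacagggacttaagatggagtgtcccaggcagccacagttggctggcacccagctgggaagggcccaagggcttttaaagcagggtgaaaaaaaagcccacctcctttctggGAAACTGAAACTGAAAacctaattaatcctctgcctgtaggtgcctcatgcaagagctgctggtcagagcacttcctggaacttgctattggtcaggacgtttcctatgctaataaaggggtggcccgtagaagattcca
DTX3L (chr3:122564088-122564347, plus strand): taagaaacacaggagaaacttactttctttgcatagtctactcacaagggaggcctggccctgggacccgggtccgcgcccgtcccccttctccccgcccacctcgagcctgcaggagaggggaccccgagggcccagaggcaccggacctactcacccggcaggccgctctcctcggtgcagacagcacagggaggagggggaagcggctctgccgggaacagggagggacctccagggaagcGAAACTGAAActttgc
SAMD9L (chr7:93148376-93148635, minus strand): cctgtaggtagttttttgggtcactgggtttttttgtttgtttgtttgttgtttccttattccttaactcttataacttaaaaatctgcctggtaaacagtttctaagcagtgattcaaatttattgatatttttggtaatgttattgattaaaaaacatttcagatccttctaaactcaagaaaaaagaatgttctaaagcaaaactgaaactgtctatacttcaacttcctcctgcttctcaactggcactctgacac

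IFITM3 and IFITM1 each hold 2 matches. In IFITM3 these begin 52 and 35 bases before the start, and in IFITM1 they begin 40 and 6 bases before it. The 2 matches of BST2 begin 130 and 124 bases before the start and overlap each other, as a run of GAAACT repeats. The match of DTX3L begins 6 bases before the start and ends 4 bases past it, and the window of SAMD9L has none. RefSeq promoters of 300 bases were found for 36 of the 47 genes, and 21 of these 36 (58.3%) held the ISRE core, against 3.57% of all 35116 promoters of that length. Among these promoters the core was in 11 of 14 genes that fell, 2 of 6 that rose (IFIT1 and SAMD9) and 7 of 14 that were not called. Those that rose without a core were SAMD9L and the receptor and transcription factor genes IFNAR1, IFNGR1 and STAT2. Direction and kind of gene therefore cannot be told apart in this split, which was not tested. The fallen genes shown above were picked for holding a core and SAMD9L was not, so their promoters cannot be compared with its own. The GAS element TTCNNNGAA, bound by STAT dimers, was in 8 of the 36 (22.2%, against 7.66% of all). A CP2-type motif (CCAG, any 6 bases, CCAG) was in 3 of the 36 (8.33%, against 4.04% of all), those of DDX60, IFITM3 and IFI6. A match describes letters in these windows and does not show binding.

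The IFIT genes, whose proteins bind viral RNA ends, did not move together. IFIT1 measured 2.02 and 4.28 CPM in empty and 6.04 and 5.30 CPM in overexpressing libraries (log2 fold change 0.87, SE 0.29, edgeR adjusted p = 0.0264). The empty libraries differed from each other by more than the overexpressing ones. Without empty replicate 1 the log2 fold change was 0.41 (edgeR adjusted p = 0.220) and without empty replicate 2 it was 1.49, and the call was also lost without either overexpressing library, at 0.78 without replicate 1 (adjusted p = 0.0957) and 0.97 without replicate 2 (adjusted p = 0.0598). IFIT2 measured 6.01 and 4.49 CPM against 3.02 and 3.05 CPM, a log2 fold change of -0.80 (edgeR adjusted p = 0.00733). Without empty replicate 1 the value was -0.56 (adjusted p = 0.123). IFIT3 ranged from 16.3 to 19.5 CPM with overlapping groups. IFIT5 measured 22.5 and 23.5 CPM against 18.5 and 19.1 CPM (log2 fold change -0.29, edgeR adjusted p = 0.0215), and lost its call without empty replicate 1 (adjusted p = 0.0607), empty replicate 2 (0.125) or TFCP2L1 overexpression replicate 1 (0.0696).

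IFIT2 also differed between the units deposited. Its TPM, which also scale by transcript length, were 7.26 and 4.70 in empty against 1.55 and 1.57 in overexpressing libraries. The log2 ratio of mean TPM was -1.94, that of mean CPM -0.79. This gap was larger than in 99.1% of the 16499 tested genes with TPM above 0 in both groups, whose median gap was 0.05. IFIT2 shares 356 exon bases on the same strand with AL353751.1, a gene that fell from 7.81 and 5.23 CPM to 1.34 and 1.11 CPM. Summed over both rows, likewise chosen after the values were seen, the log2 fold change was -1.47 (SE 0.18, edgeR adjusted p = 1.44e-05). In all these versions IFIT2 was lower with TFCP2L1, and the size depended on the unit and on the assignment of reads.

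**Figure D3:**
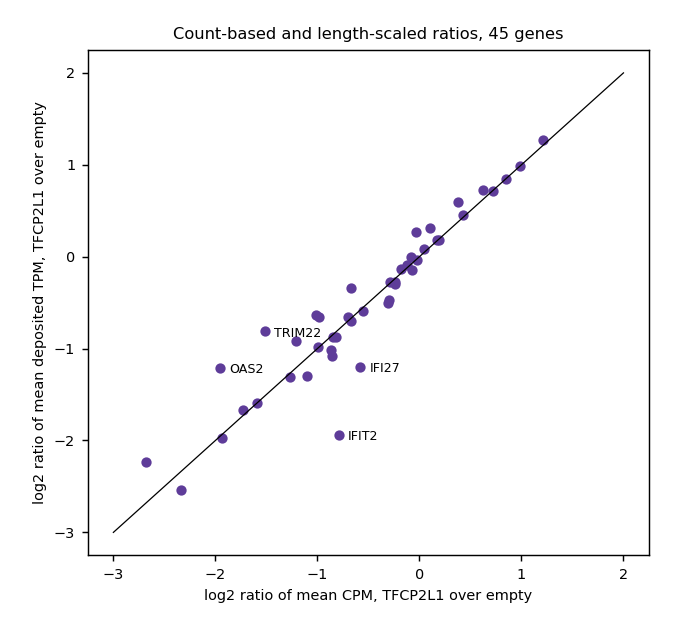
Log2 ratio of mean deposited TPM against log2 ratio of mean CPM (both TFCP2L1 over empty) for 45 genes, with a line of equality. Most genes lie near the line, and IFIT2, OAS2, TRIM22 and IFI27 are more than 0.5 from it.

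The gap between the log2 ratios of TPM and CPM was over 0.5 for 4 of 45 genes, and for 4.7% of all tested genes. Besides IFIT2 these were OAS2, TRIM22 and IFI27, all under 1 CPM in every library apart from OAS2, which reached 1.00.

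Of 6 genes grouped as RNA-directed enzymes and relatives, 4 fell (66.7% lower, against 23.9% over all tested genes). The OAS enzymes make a messenger that activates RNase L. OAS3 measured 14.5 and 17.2 CPM in empty and 8.09 and 7.90 CPM in overexpressing libraries, a log2 fold change of -0.98 (SE 0.13, edgeR adjusted p = 2.80e-05). The groups did not overlap. OASL, a relative without that enzyme activity, measured 2.23 and 2.96 CPM against 1.22 and 1.03 CPM (log2 fold change -1.20, edgeR adjusted p = 0.00440), and lost its call without empty replicate 2, at -0.99. OAS2 had 17 and 19 counts against 8 and 3 (log2 fold change -1.93, SE 0.57, edgeR adjusted p = 0.0123). Its call was lost without empty replicate 2 (-1.69, adjusted p = 0.110) or TFCP2L1 overexpression replicate 2 (-1.34, adjusted p = 0.133), and without overexpression replicate 1 the value was -2.84 (adjusted p = 0.00902). OAS1 had 34.02 and 34.27 counts against 26.31 and 24, and was not called (log2 fold change -0.69, 95% interval -1.42 to 0.03). ISG20, an exonuclease, had 30 and 14 counts against 3 and 5, the lowest log2 fold change among the 45 tested genes at -2.65 (SE 0.57, edgeR adjusted p = 0.00145). EIF2AK2, which encodes the translation-blocking kinase PKR, measured 72.9 and 71.6 CPM against 73.0 and 64.6 CPM. Its groups overlapped, and the 95% interval of the log2 fold change was -0.23 to 0.09.

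The MX and GBP genes encode large GTPases. Of the 4 such genes among the 47, 2 fell and 2 were not called, 1 of each in either family. Over all tested genes 23.9% were lower and 23.5% higher. MX2 measured 5.54 and 4.28 CPM in empty and 2.43 and 2.14 CPM in overexpressing libraries (log2 fold change -1.11, SE 0.23, edgeR adjusted p = 0.00106). MX1 had 19.02 and 18 counts against 15 and 9, and was not called (log2 fold change -0.86, 95% interval -1.86 to 0.14). GBP2 measured 10.5 and 9.46 CPM against 5.03 and 4.85 CPM, a 2.02-fold fall (log2 fold change -1.01, SE 0.16, edgeR adjusted p = 0.000106). GBP1, its neighbour on chromosome 1, ranged from 27.2 to 33.2 CPM with overlapping groups. In the same family, outside the 47 genes, GBP4 rose from 0.859 and 1.69 CPM to 9.06 and 7.90 CPM (log2 fold change 2.76, SE 0.26, edgeR adjusted p = 7.50e-07). GBP5, named after its value was seen, rose from 4.38 and 4.86 CPM to 10.9 CPM in both overexpressing libraries (log2 fold change 1.24, edgeR adjusted p = 1.47e-05). GBP genes are close relatives, so values of single members may include reads of others.

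SAMD9 and SAMD9L, adjacent genes on chromosome 7 whose proteins restrict poxviruses and cell growth, rose together. SAMD9L (ENSG00000177409, chromosome 7, 93130055 to 93148369, minus strand) measured 6.22 and 7.98 CPM in empty and 17.1 and 15.8 CPM in overexpressing libraries, a 2.33-fold rise (log2 fold change 1.22, SE 0.14, edgeR adjusted p = 6.12e-06). SAMD9 measured 25.5 and 25.4 CPM against 46.9 and 36.7 CPM (log2 fold change 0.71, SE 0.11, edgeR adjusted p = 0.000108). Both overexpressing libraries were above both empty libraries for each gene.

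DTX3L and PARP9 encode a ubiquitin ligase and its partner, an ADP-ribosyltransferase family protein, and are transcribed head to head on chromosome 3 with 217 shared exon bases on opposite strands. DTX3L measured 70.9 and 86.2 CPM in empty and 44.8 and 42.2 CPM in overexpressing libraries (log2 fold change -0.85, SE 0.09, edgeR adjusted p = 3.24e-06). PARP9 measured 20.7 and 21.5 CPM against 17.6 and 16.4 CPM, a smaller log2 fold change of -0.31 (edgeR adjusted p = 0.0194). The call of PARP9 was lost without empty replicate 1 (adjusted p = 0.0583), empty replicate 2 (0.101) or TFCP2L1 overexpression replicate 2 (0.0897). Of the remaining effectors, XAF1, a pro-apoptotic gene, ranged from 4.35 to 6.82 CPM with overlapping groups. TRIM22, an antiviral ubiquitin ligase with 14 and 15 counts against 8.19 and 4, was just inside the filter on low counts (log2 fold change -1.50, edgeR adjusted p = 0.0421). TRIM22 lost its call without any 1 of the 4 libraries, with log2 fold changes of -1.69 and -1.29 without empty replicates 1 and 2 and of -2.13 and -1.03 without overexpression replicates 1 and 2. RSAD2, which encodes the antiviral enzyme viperin, had 1 count in 1 empty library and none in the others.

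Of the 5 IFI genes, 3 fell (60.0% lower, against 23.9% over all tested genes). IFI6, a mitochondrial protein that protects against apoptosis, measured 14.8 and 13.6 CPM in empty and 7.97 and 9.92 CPM in overexpressing libraries (log2 fold change -0.67, SE 0.14, edgeR adjusted p = 0.00108). The adjacent genes IFI44 and IFI44L were both lower. IFI44 had 101 counts in each empty library and 61 in each overexpressing one (log2 fold change -0.98, edgeR adjusted p = 0.00214). Scaled to library size these were 4.34 and 5.34 CPM against 2.56 and 2.33 CPM. IFI44L had 81 and 72 counts against 51 and 64 (log2 fold change -0.66, edgeR adjusted p = 0.0286), and lost its call without empty replicate 1 (adjusted p = 0.0647), empty replicate 2 (0.126) or TFCP2L1 overexpression replicate 1 (0.131). IFI35 measured 14.4 ± 1.17 CPM in empty and 12.2 ± 0.315 CPM in overexpressing libraries (SD, n = 2 each). IFI27 had 22 and 15 counts against 14 and 15, or 0.944 and 0.793 CPM against 0.587 and 0.572 CPM. Neither IFI35 nor IFI27 was called.

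**Figure D4:**
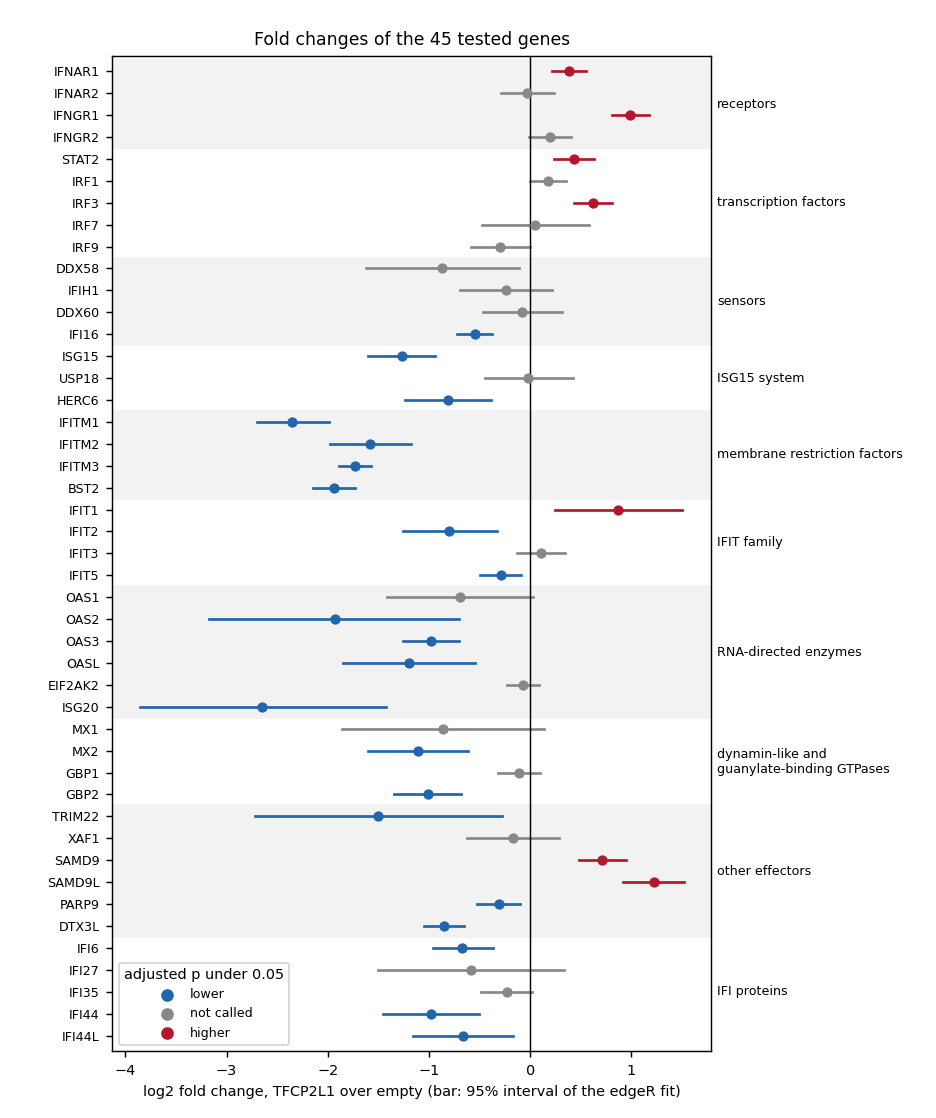
Log2 fold change of the 45 tested genes (points, TFCP2L1 over empty) with the 95% interval of the edgeR fit (bars), coloured by call. The 4 membrane restriction factors lie between -2.35 and -1.58, and the genes above 0 and called are IFNAR1, IFNGR1, STAT2, IRF3, IFIT1, SAMD9 and SAMD9L.

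Many of the genes are neighbours. With a gap of at most 1000000 bases between neighbours, 26 of the 47 lay in 10 clusters. In the cluster of IFITM1, IFITM2, IFITM3 and IRF7 on chromosome 11 (307631 to 615999), the IFITM genes fell and IRF7 was not called. Of 10 other tested coding genes lying between them, 4 fell and 2 rose, and the median log2 fold change was -0.21. In the IFIT cluster on chromosome 10 (89283694 to 89421001) 2 genes fell and 1 rose. In the OAS cluster on chromosome 12 (112906777 to 113011723) 2 of 3 fell. Over all tested genes 23.9% were lower and 23.5% higher, and counts within single clusters are too small to set against these shares.

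Of 40 interferon-inducible genes outside the 47, 35 were tested, with 15 lower and 5 higher (42.9% and 14.3%, against 23.9% and 23.5% of all tested genes). PARP12 fell from 74.0 and 78.3 CPM to 28.9 and 32.2 CPM (log2 fold change -1.31, edgeR adjusted p = 1.16e-08), and its relative PARP14 from 66.4 and 71.6 CPM to 36.8 and 33.1 CPM. CD274, which encodes the checkpoint ligand PD-L1, fell from 20.2 ± 1.76 to 6.41 ± 0.0526 CPM (SD, n = 2 each), with a log2 fold change of -1.65 (SE 0.13, edgeR adjusted p = 8.54e-08). The median log2 fold change of the 35 was -0.22.

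**Figure D5:**
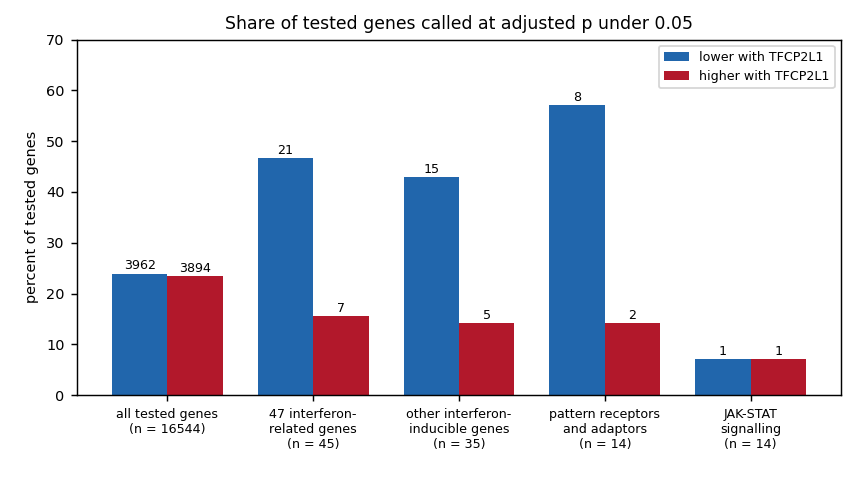
Percent of tested genes called lower (blue) or higher (red) with TFCP2L1 in each list, with the number of genes above each bar. Over all 16544 tested genes the bars are nearly equal, in the interferon-related and pattern-recognition lists the blue bar is the taller, and in JAK-STAT signalling 1 gene was called each way.

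Of the 28 calls among the 47 genes, 20 held under every other scaling, filter, test and left-out library that tested them, 14 lower and 6 higher. How many of all called genes held in this way was not computed, so the 20 cannot be set against such a share. The 8 calls that did not hold throughout were IFIT1, IFIT2, IFIT5, OAS2, OASL, TRIM22, PARP9 and IFI44L. Under DESeq2, IFIT1 (adjusted p = 0.0504), IFIT5 (0.111), OAS2 (0.0916), TRIM22 (0.231), PARP9 (0.103) and IFI44L (0.165) were not called. With no filter on low counts IFIT5 (edgeR adjusted p = 0.0519), TRIM22 (0.0840) and IFI44L (0.0504) were not called. In the authors' deposited table, 19 of the 47 genes had an adjusted p under 0.05, 13 lower and 6 higher, and all 19 were among the 28. The share of all genes with such a value in that table was not computed, so the 19 cannot be set against it. The called genes that missed 0.05 there were the 8 that did not hold throughout and HERC6 (authors' DESeq2 adjusted p = 0.0609). IFNE, outside the 47, missed it too (0.0544).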

How the data were processed

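RNA from 4 Hs578T libraries was measured, grouped by each sample's treatment label, and columns were matched to samples by title. Per the file headers, the authors deposited raw estimated counts (up to 2 decimals) and TPM for each library. The authors' deposited fold change (a ratio), log2 fold change and p-value are labelled DESeq2. Bowtie 0.12.2 and mm9 stand in the submitters' processing notes, but mm9 is a mouse build while the gene IDs are human, so the aligner, counter, strand and annotation count as not given in the sources used.

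Rounded counts went into edgeR 4.0.16 (R version 4.3.3; TMM factors 0.995 to 1.005, filterByExpr with a minimum count of 10, glmQLFit with robust = TRUE, glmQLFTest, Benjamini-Hochberg over all 16544 genes tested). A standard error is the absolute log2 fold change over the square root of its F statistic. An exact permutation test of 2 against 2 has a smallest p of 0.33 and was not used. Replicate libraries were not copies of each other: chi-square per degree of freedom was 3.40 within empty and 6.28 within overexpressing libraries. Between groups it was computed for replicate 1 of each only, at 73.2. The 47 genes and the lists were chosen with earlier results of these data known. All 47 genes were to be named, with up to 4 called genes per other list, smallest p first; exceptions are marked. Positions and overlaps are from GENCODE release 29 and promoters from RefSeq (GRCh38.p14), neither necessarily the authors' annotation. Alternatives tried were DESeq2 1.42.0, limma-voom 3.58.1, 3 other scalings, TMM computed after dropping TFCP2L1 and the 10 most abundant genes, both looser and stricter count filters, stricter thresholds (adjusted p under 0.01, or a log2 change of 1 or more) and omission of each library in turn. Some genes of the lists are not reported here.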

Additional observations from a re-analysis of the deposited data

How the results depend on the processing

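The numbers of genes called lower and higher among the 47 were 21 and 7, and ranged from 17 to 22 and from 6 to 8 under the other scalings, filters and tests. Over all genes these settings gave 6121 to 8184 calls. Leaving out 1 library gave 15 to 19 lower and 6 to 8 higher, and 5953 to 7858 calls over all genes against 7856. At an adjusted p under 0.01 there were 16 lower, 6 higher and 5853 over all genes. With a log2 fold minimum of 1 there were 11 lower, 1 higher and 2299 over all genes, as that condition removes smaller changes. The 4 other scalings changed no call among the 47, and none of the 28 called genes changed sign under any scaling, filter, test or left-out library.

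Of 535 values of single genes under these settings, 13 changed sign, all of 7 genes that were not called. The cause was not tested. With 1 library left out, the log2 fold change ranged from -0.12 to 0.06 for IFNAR2 (0.06 both without empty replicate 1 and without overexpression replicate 2), from -0.10 to 0.20 for IRF7 (-0.08 without overexpression replicate 2), from -0.23 to 0.08 for DDX60, from -0.17 to 0.15 for USP18 (0.03 without overexpression replicate 1), from -0.01 to 0.23 for IFIT3, from -0.15 to 0.02 for EIF2AK2 and from -0.42 to 0.07 for XAF1 (0.06 without overexpression replicate 2). USP18 was also at 0.02 with no filter and at 0.00 with limma-voom. IRF9 went to 0.50 when summed with the gene that overlaps it, chosen after the values were seen. No paired analysis was possible because the sample titles number the libraries without repeating a number between groups. Depth limits the genes with few counts, OAS2, ISG20, MX1, TRIM22, IFI27, HERC5 and RSAD2.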
